A study of Mus musculus with 60 samples.

Results

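The genes for RNA polymerase II (Pol II) and the general transcription factors were followed in nascent RNA from E14 cells, a mouse embryonic stem cell line, 72 h after siRNA transfection. Members were chosen by gene symbol, with earlier results of these data known. They were Polr2a to Polr2m, Tbp, Tbpl1, the Taf genes of the Pol II system, and symbols starting with Gtf2a, Gtf2b, Gtf2e, Gtf2f or Gtf2h. This gave 48 genes of the 24260 symbols in the files. They fell into 13 Pol II subunit genes, 18 of TFIID, 5 of the TFIIH core, 8 of TFIIA, TFIIB, TFIIE and TFIIF, and 4 that stand outside these complexes (Tbpl1, Taf15, Taf5l and Taf6l). Taf7l2, whose suffix holds a digit, was counted as a TAF. Each symbol is represented by its transcript with the highest RPKM (reads scaled to gene span and library size) summed over the libraries.

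Cells given a control siRNA (siCtrl, 2 libraries) were compared with cells given an siRNA (siEsrrb, 2 libraries) against Esrrb, an orphan nuclear receptor of the naive pluripotency network. All 4 came from E14 cells grown with serum and LIF, and RNA was taken from the chromatin pellet. The series examined how enhancer inactivation by this knockdown affects genes, and in other samples, not analysed here, it mapped Pol II, TFIIB and TAF2 on chromatin. The series' design text exempts nascent RNA-seq from its statement that each treatment had 2 biological replicates, and no label says that the libraries of a group came from separate cultures. So the p-values measure the spread between these libraries, which may be technical.

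Pol II copies genes into messenger RNA but cannot find a promoter by itself. TFIID, made of the TATA-binding protein TBP and TBP-associated factors (TAFs), recognises core promoters; TFIIA and TFIIB stabilise it there and recruit the polymerase with TFIIF, and TFIIE and TFIIH then open the DNA. These proteins are needed in nearly every cell, while some TAF paralogs are used mainly in germ cells.

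The promoters of 4 members are shown: Polr2a, which had the highest nascent RNA of the set and holds a TATA box match, and Taf5l, Taf3 and Taf1, whose values were lower in both siEsrrb libraries and which hold an ETS match. Each is a RefSeq window of GRCm38.p6, 250 bases before to 50 bases after an annotated start, 5′ to 3′ on the gene's strand, whereas the RPKM were made on mm9. Capitals mark a match on either strand to 1 of 5 motifs. The TATA box was searched as TATAAA. The motif of ETS factors was searched as CCGGAAG. The motif of YY1 was searched as AAGATGGCG and that of NRF1 as GCGCATGC. The core of the ERR element that Esrrb binds was searched as AAGGTCA.
Polr2a, chr11:69758584-69758883, minus strand: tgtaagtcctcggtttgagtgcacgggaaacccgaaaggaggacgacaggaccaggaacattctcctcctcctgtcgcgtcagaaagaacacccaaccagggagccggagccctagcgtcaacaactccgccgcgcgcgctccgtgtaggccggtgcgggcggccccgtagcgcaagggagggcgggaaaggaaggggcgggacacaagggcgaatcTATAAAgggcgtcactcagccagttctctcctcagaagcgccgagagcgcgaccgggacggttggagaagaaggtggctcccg
Taf5l, chr8:124021348-124021647, minus strand: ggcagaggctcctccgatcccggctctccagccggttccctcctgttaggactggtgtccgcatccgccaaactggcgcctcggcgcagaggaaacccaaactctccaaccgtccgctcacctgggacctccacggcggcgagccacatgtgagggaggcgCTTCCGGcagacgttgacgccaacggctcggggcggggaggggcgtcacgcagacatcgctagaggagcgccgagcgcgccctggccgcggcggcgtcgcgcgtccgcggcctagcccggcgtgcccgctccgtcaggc
Taf3, chr2:10048560-10048859, minus strand: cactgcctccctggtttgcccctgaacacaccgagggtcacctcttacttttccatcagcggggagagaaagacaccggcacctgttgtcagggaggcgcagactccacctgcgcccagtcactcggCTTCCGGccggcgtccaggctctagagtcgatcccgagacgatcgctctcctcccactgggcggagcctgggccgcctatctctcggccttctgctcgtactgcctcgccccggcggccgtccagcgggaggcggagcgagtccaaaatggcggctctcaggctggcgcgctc
Taf1, chrX:101532485-101532784, plus strand: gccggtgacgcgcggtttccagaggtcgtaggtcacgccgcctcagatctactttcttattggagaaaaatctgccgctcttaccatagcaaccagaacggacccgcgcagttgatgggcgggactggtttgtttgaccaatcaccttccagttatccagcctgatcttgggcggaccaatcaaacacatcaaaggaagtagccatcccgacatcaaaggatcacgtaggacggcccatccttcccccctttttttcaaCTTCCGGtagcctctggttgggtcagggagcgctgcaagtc

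The first base of the TATAAA of Polr2a lay 33 bases before the annotated start. The first base of the ETS match lay 89 bases before the start of Taf5l and 123 before that of Taf3, and at base 10 after the start of Taf1, in each case on the opposite strand. For Taf5l the first of its windows is shown. Windows were found for 41 of the 48 members, 50 windows in all. Backgrounds are given as the share of the 9195 windows of tested genes and then of all 21831 windows, since the 50 include windows of untested members. AAGGTCA was in 0 of the 50 windows (backgrounds 3.07% and 4.07%), and TCAAGGTCA, the full ERR element, was in 0 of 50 (0.272% and 0.348%). TATAAA was in 9 of 50 (18.0%, against 6.9% and 12.3%), among them Taf13, where it began 32 bases before the start. In the windows other than those of Polr2a and Taf13 it began 92 (Taf6) to 246 (Taf5) bases before the start. CCGGAAG was in 14 of 50 (28.0% against 20.5% and 11.5%), AAGATGGCG in 5 (10.0% against 3.69% and 1.86%) and GCGCATGC in 5 (10.0% against 5.89% and 3.55%). The promoters of Taf5l, Taf3 and Taf1 were picked for lower values and a CCGGAAG match together. That match was also in the windows of Polr2f and Polr2c, which were higher in both siEsrrb libraries once scaled. It was absent from those of Tbp and Taf8, which were lower, and from the other window of Taf5l. CACGTG (E-box) was in 12 (24.0% against 10.9% and 8.08%) and CCAAT in 13 (26.0% against 39.2% and 38.3%). The overlapping windows of Taf6 hold the same GCGCATGC and those of Gtf2h5 the same CACGTG, so these sites were counted more than once. The full ERR element holds its core. These are matches of letters in a short window and say nothing on binding.

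The libraries held 22363943 to 68002338 reads behind the RPKM, and those numbered 2 were the deeper ones in both groups. For Esrrb itself the controls gave 3.23 (replicate 1) and 3.36 RPKM (replicate 2), and the knockdown libraries 1.38 and 2.20 RPKM in the same order, which is 44.2% and 67.0% of control after scaling. All 9 embryonic stem cell markers examined were above the expression minimum in these libraries, with summed scaled RPKM of 116 and 121 in siCtrl and 103 and 117 in siEsrrb. Fibroblast markers summed to at most 0.784 RPKM in a library, with Lum at 0 in every library, and those of primitive endoderm, trophoblast and mesoderm to at most 0.269. The 3 neuroectoderm markers (Sox1, Pax6 and Nes) summed to 4.29 and 4.89 RPKM in siCtrl and to 7.42 and 7.73 in siEsrrb, and their part in the members' values was not tested. In such bulk samples, fewer cells of a type and less RNA per cell cannot be told apart.

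Most of the machinery was transcribed at a moderate level. Of the 48 members, 44 reached the expression minimum of a mean of 0.5 RPKM over the libraries, and their median scaled level in siCtrl was 1.69 RPKM against 1.6 RPKM for all 9758 tested genes. Reads behind a tested member ran from 39 (Polr2k in siEsrrb replicate 1) to 17220 (Polr2a in siCtrl replicate 2), and 40 of the 44 had at least 100 reads in every library. The 4 members below the minimum were Taf7l, Taf7l2, Taf9b and Gtf2a1l. A member that was tested passed through its mean over all 4 libraries, whichever group was higher.

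**Figure D1:**
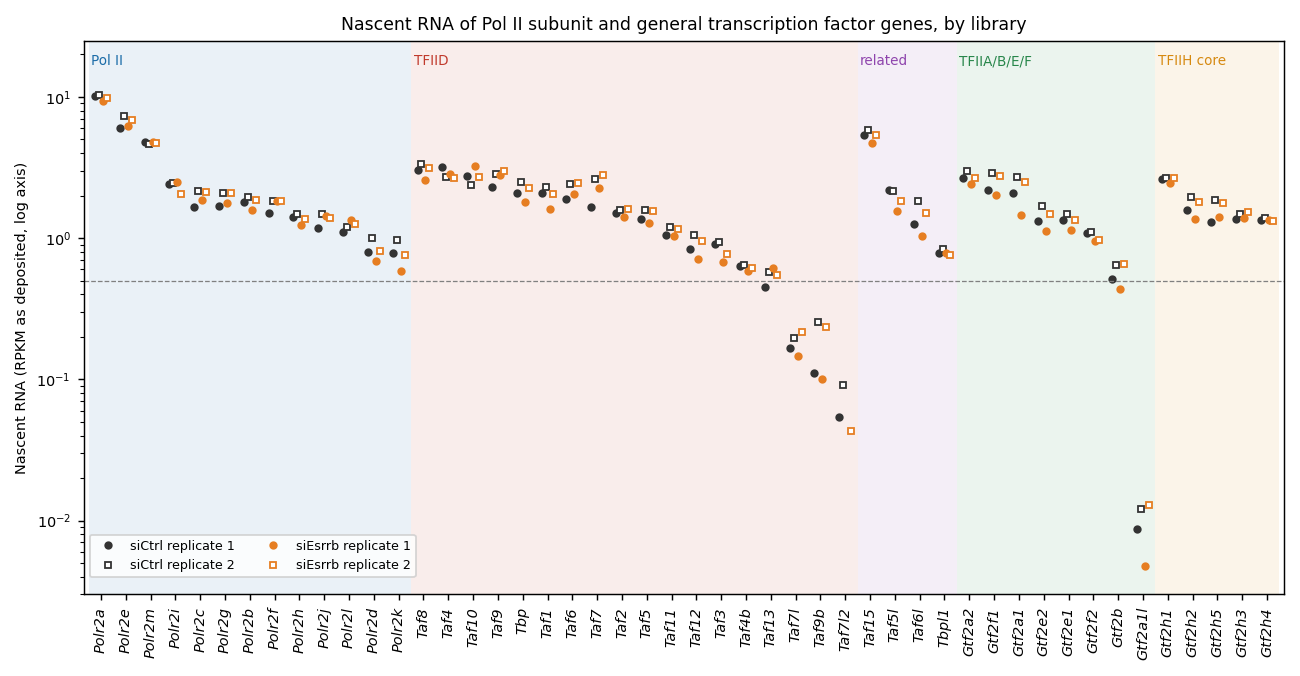
Deposited RPKM (log axis) of the 48 members in the 4 libraries, ordered by complex and level; black points are siCtrl, orange points siEsrrb, filled for replicate 1 and open for replicate 2, the dashed line marks 0.5 RPKM, and "related" stands for the 4 genes outside the complexes. Polr2a stands highest at 9.36 to 10.3 RPKM and Gtf2a1l lowest, while Taf7l2 in siEsrrb replicate 1 is at 0 and has no point.

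After knockdown, the nascent RNA of these genes moved little, with a median absolute log2 fold change of 0.09 against 0.1 for all tested genes. With 0.5 RPKM added before the log, fitted log2 fold changes (siEsrrb against siCtrl, scaled RPKM) ran from -0.25 for Taf5l to 0.26 for Taf7, with a median of -0.035 over the 44 members, against -0.001 over all tested genes. The added 0.5 shrinks the values of low genes, and with voom on the recovered reads the lower end was Polr2k at -0.33, with Taf3 at -0.31 and Taf5l at -0.30. The median was -0.048 in replicate 1 and -0.037 in replicate 2. In limma's test with Benjamini-Hochberg adjustment over all genes, 0 of 44 members passed an adjusted p of 0.05 (background 0.0%), and the smallest adjusted p of a member was 0.416. Voom on the recovered reads also passed 0, with 2 of 44 at an unadjusted p under 0.05, against 1187 of all 9751 genes. With voom and the replicate number as a block, 5 members passed (11.4%, against 27.5% of 9751 genes), all lower, as given under the processing below. At an unadjusted limma p under 0.05 there was 1 member, Taf5l, or 2.27% of the set, against 11.3% of all tested genes.

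Both siEsrrb libraries lay on the same side of both controls, in scaled values as everywhere below, for 19 members (43.2%), against 43.8% of all tested genes. Of these, 12 were lower (27.3%, background 22.0%) and 7 higher (15.9%, background 21.8%). An exact permutation test of 2 libraries against 2 cannot give a p below 0.333, so none was run. The median absolute fold change of the members was 0.09 on the log2 scale, and the median absolute difference between the 2 controls was also 0.09. Over all tested genes these medians were 0.1 and 0.12. For 19 of the 44 the fitted change was larger than the difference between the controls, as for 4548 of all 9758 tested genes. No member differed by more than 0.5 on the log2 scale in replicate 1, where 1001 of all tested genes did.

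**Figure D2:**
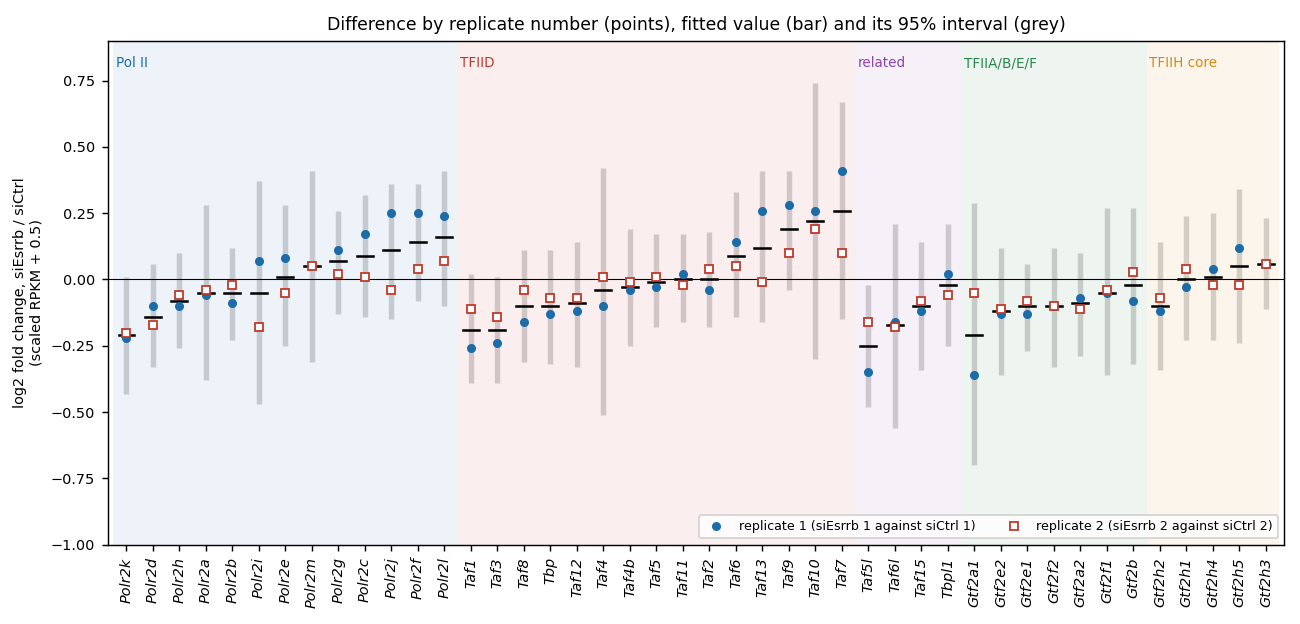
Log2 fold change of the 44 tested members, siEsrrb against siCtrl; blue points are replicate 1, open red squares replicate 2, black bars the fitted value and grey bands its 95% interval from limma. Fitted values lie between -0.25 (Taf5l) and 0.26 (Taf7), and the grey band of each member but Taf5l reaches 0.

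Pol II subunit genes split evenly. Of 13 tested subunits, 4 were higher and 4 lower with no overlap between the groups (30.8% each, against 21.8% and 22.0% of all tested genes). The median fold change was 0.014 (0.071 in replicate 1 and -0.037 in replicate 2). On RPKM as deposited, without scaling, it was -0.026, against -0.034 for all tested genes. Polr2a encodes the largest subunit, whose C-terminal repeats are phosphorylated during transcription. Its level was 10.1 and 10.3 RPKM in the controls and 9.36 and 9.76 RPKM after knockdown, replicate 1 first here and below. Scaled values were 10.1 ± 0.782 RPKM for siCtrl against 9.71 ± 0.655 for siEsrrb (SD over 2 libraries), with overlap. Its fitted difference was -0.05 on the log2 scale (SE 0.12, 95% interval -0.38 to 0.28; limma adjusted p 0.914). It was the highest of the subunit genes in every library, and its percentile among tested genes was 93.8. Polr2b, the second largest subunit, which forms the active centre with Polr2a, stood at only a fraction of that level, 1.59 to 1.95 RPKM. Both siEsrrb libraries were lower once scaled, at 92.1% and 98.6% of control (log2 fold change -0.05, 95% interval -0.23 to 0.12).

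Polr2k encodes a small zinc-binding subunit that Pol I, Pol II and Pol III share. It had 0.7799 and 0.9745 RPKM in siCtrl and 0.581 and 0.759 RPKM in siEsrrb, from 58, 199, 39 and 141 reads. Both siEsrrb libraries were lower, at 77.2% and 79.8% of control. The fitted log2 fold change was -0.21 (SE 0.08; limma adjusted p 0.459), and counting error alone spans 50.1% to 118% of control in replicate 1 and 63.9% to 99.6% in replicate 2. Polr2d, which with Polr2g forms the stalk, had 0.799 and 1.00 RPKM in siCtrl and 0.687 and 0.810 RPKM in siEsrrb. It was lower in both siEsrrb libraries, at 89.2% and 82.7% of control (log2 fold change -0.14, SE 0.07; limma adjusted p 0.564). That value was -0.24 with voom and -0.09 without siCtrl replicate 2. Its stalk partner Polr2g was on the other side, at 110% and 102% of control (0.07, SE 0.07).

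Polr2f, another shared subunit, had 1.52 and 1.83 RPKM in siCtrl and 1.82 and 1.84 RPKM in siEsrrb. The values overlap as deposited, and after scaling both siEsrrb libraries were higher, at 124% and 103% of control (log2 fold change 0.14, SE 0.08; limma adjusted p 0.588). Polr2l, also shared, had 1.103 and 1.205 RPKM in siCtrl and 1.34 and 1.27 RPKM in siEsrrb. It stood at 126% and 108% of control (0.16, SE 0.09; limma adjusted p 0.594), from 90 to 270 reads. Polr2c, which pairs with Polr2j in the assembly of the enzyme, had 1.65 and 2.16 RPKM in siCtrl and 1.86 and 2.12 RPKM in siEsrrb, 116% and 101% of control (0.09, SE 0.08; limma adjusted p 0.745). For Polr2f, Polr2l and Polr2c the excess was mostly in replicate 1. Without siEsrrb replicate 1 the value of Polr2f was 0.07 and that of Polr2l 0.06, and without siEsrrb replicate 2 they were 0.21 and 0.26. Polr2c was 0.01 without siCtrl replicate 1, 0.17 without siCtrl replicate 2 and 0.05 without scaling. The 5 subunits shared by the 3 polymerases thus lay on both sides of 0. Without overlap, 2 were higher (Polr2f, Polr2l) and 2 lower (Polr2k, Polr2h at -0.08), 40.0% each against 21.8% and 22.0% of all tested genes. Polr2e, at 6.06 to 7.28 RPKM the second highest subunit gene in each library, was at 0.01 with overlapping groups. Polr2m encodes Gdown1, a protein that binds Pol II and antagonises TFIIF. It had 4.62 to 4.81 RPKM and a log2 fold change of 0.05 in both replicates.

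TFIID genes had a median of -0.006 over 15 tested members (-0.039 and -0.011 in replicates 1 and 2). In both siEsrrb libraries 4 were lower and 2 higher (26.7% and 13.3%, against 22.0% and 21.8% of all tested genes). Tbp had 2.08 and 2.49 RPKM in siCtrl and 1.80 and 2.28 RPKM in siEsrrb. Once scaled, both siEsrrb libraries were below both controls, at 89.4% and 94.0% (log2 fold change -0.10, SE 0.08; limma adjusted p 0.682). It was -0.04 without siEsrrb replicate 1 and -0.16 without siEsrrb replicate 2. Taf2, an aminopeptidase-like TAF that contacts initiator DNA, had 1.51 and 1.59 RPKM in siCtrl and 1.40 and 1.61 RPKM in siEsrrb. Its groups overlapped and its log2 fold change was -0.00087 (95% interval -0.18 to 0.18; limma adjusted p 0.999). Taf1, the largest TAF, with bromodomains that bind acetylated histones, had 2.10 and 2.31 RPKM in siCtrl and 1.62 and 2.05 RPKM in siEsrrb. It was lower in both siEsrrb libraries, at 79.7% and 90.9% of control (-0.19, SE 0.08; limma adjusted p 0.477).

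Taf3, whose PHD finger binds the active promoter mark on histone H3, had 0.913 and 0.937 RPKM in siCtrl and 0.677 and 0.778 RPKM in siEsrrb. Its groups did not overlap, at 76.9% and 85.1% of control (log2 fold change -0.19, SE 0.07; limma adjusted p 0.450). Taf8, which pairs with Taf10, was lower by less (-0.10, SE 0.08). Taf7, an inhibitor of the acetyltransferase activity of Taf1, had 1.65 and 2.61 RPKM in siCtrl and 2.27 and 2.78 RPKM in siEsrrb. It was the member with the largest fitted value, 0.26 (SE 0.15; limma adjusted p 0.590), at 143% and 109% of control, and its 2 controls differed by 0.38 on the log2 scale. The value was 0.07 without siCtrl replicate 1 and 0.45 without siCtrl replicate 2. Taf9, a histone-fold TAF that is also part of the SAGA coactivator, had 2.29 and 2.85 RPKM in siCtrl and 2.78 and 3.00 RPKM in siEsrrb. After scaling both siEsrrb libraries were higher, at 126% and 108% of control (0.19, SE 0.08; limma adjusted p 0.502). Taf10, another histone-fold TAF shared with SAGA, had a larger value (0.22, SE 0.19) but overlapping groups. Its 2 controls differed by -0.33 and its reads numbered 98 to 242. Taf6, Taf9 and Taf10 overlap another transcribed gene (Ap4m1, Ak6 and Ilk), and reads of such pairs cannot be told apart here. The remaining TFIID genes lay between -0.09 (Taf12) and 0.12 (Taf13), with groups that overlapped.

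Among the genes outside these complexes, Taf5l had the smallest p of the whole set. Taf5l and Taf6l take the places of Taf5 and Taf6 in SAGA. Taf5l had 2.20 and 2.16 RPKM in siCtrl and 1.57 and 1.84 RPKM in siEsrrb, from 1360, 3678, 876 and 2848 reads. Both siEsrrb libraries were lower, at 73.9% and 87.3% of control. The scaled means were 2.15 ± 0.215 and 1.73 ± 0.0300 RPKM (SD, n = 2 each), and the log2 fold change was -0.25 (SE 0.09, 95% interval -0.48 to -0.02; unadjusted limma p 0.0399, adjusted p 0.416). Taf6l stood at 85.8% and 84.5% of control (-0.17, SE 0.14) with overlapping groups, since its controls differed by 0.27. Taf15, an RNA-binding protein that associates with TFIID, was lower in both siEsrrb libraries (-0.10, SE 0.09).

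Every one of the 7 tested genes of TFIIA, TFIIB, TFIIE and TFIIF had a fitted value below 0, against 50.4% of all tested genes. All but Gtf2f1 span over 10 kb, and of all tested genes of such a span 60.2% were below 0. The median was -0.101 (-0.102 in replicate 1 and -0.079 in replicate 2). These values were small, and Gtf2b turned above 0 in some alternatives, as given below. Groups did not overlap for 2 of the 7 (28.6%, against 43.8% of all tested genes). These were Gtf2e1, the large TFIIE subunit, at -0.10 (SE 0.06) and Gtf2a2, the small TFIIA subunit, at -0.09 (SE 0.07). Gtf2b, which encodes TFIIB, the factor that bridges TBP and the polymerase, had 0.510 and 0.646 RPKM in siCtrl and 0.438 and 0.658 RPKM in siEsrrb, near the expression minimum. Its groups overlapped, at 89.0% and 104% of control (log2 fold change -0.02, SE 0.11, 95% interval -0.32 to 0.27; limma adjusted p 0.953). Gtf2a1, the large TFIIA subunit, differed most between replicate numbers in this group, with 72.9% of control in replicate 1 and 95.8% in replicate 2 (-0.21, SE 0.18). Gtf2e2 and Gtf2f2 had -0.12 and -0.10, and Gtf2f1, the large TFIIF subunit, -0.05.

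TFIIH core genes had a median of 0.009 over 5 members, or -0.023 without scaling, where the median of all tested genes was -0.034. Their fitted values ran from -0.10 (Gtf2h2, SE 0.09) to 0.06 (Gtf2h3, SE 0.06). Gtf2h3 was the single member apart (20.0%, against 43.8% of all tested genes), at 106% of control in both replicates. Gtf2h1, Gtf2h4 and Gtf2h5 had 0.00, 0.01 and 0.05 with overlapping groups.

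**Figure D3:**
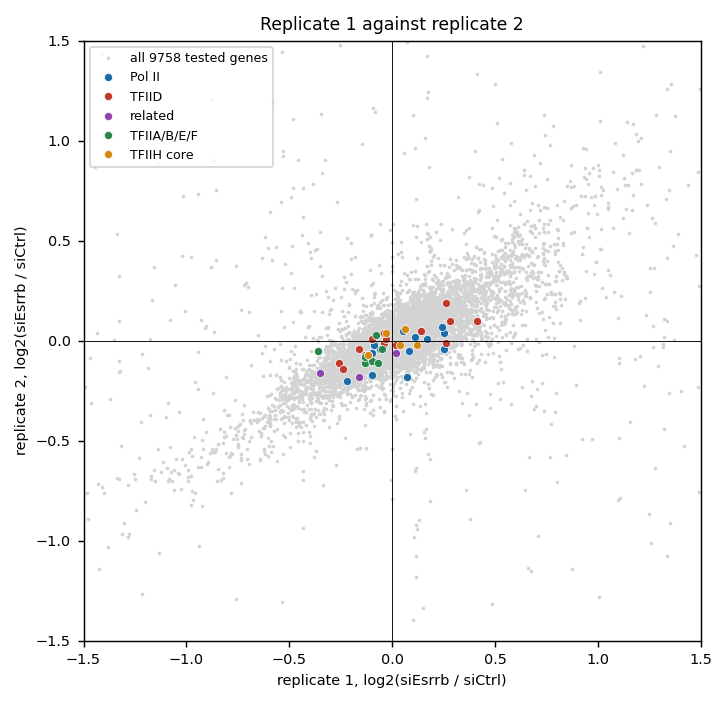
Log2 fold change in replicate 1 (x axis) against replicate 2 (y axis); grey points are the 9758 tested genes and coloured points the 44 members by complex, and both axes end at 1.5 on either side, which leaves out 135 genes, none of them a member. The members lie near the origin, between -0.36 and 0.41 in replicate 1 and between -0.20 and 0.19 in replicate 2.

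The difference was larger in replicate 1 than in replicate 2 for 37 of 44 members (84.1%), against 72.4% of all tested genes, and for all 15 TFIID genes. Replicate 1 was also the pair in which Esrrb was further down, as given above, and the shallower one; what part these have was not tested. The sign was the same in both replicates for 31 members (70.5%, against 77.4% of tested genes). Of these, 21 were lower and 10 higher, against 3870 lower and 3684 higher among the 9758 tested genes. Counting error alone (exact binomial 95% interval of the reads of a replicate pair, which covers neither cultures nor library preparation) was exceeded in both replicates and in the same direction by 11 members, or 25.0%, all lower: Taf5l, Taf3, Taf1, Tbp, Taf15, Polr2a, Gtf2a1, Gtf2e1, Gtf2e2, Gtf2f2 and Gtf2h2. The background of that count was 20.4% lower and 16.3% higher over all genes with recovered reads, and 0 members were higher by it. These intervals narrow as reads increase.

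Direction went with gene span. The span is the divisor of the reads as recovered from the RPKM, set to the multiple nearest the annotated gene length. It lay within 1% of the annotated span, introns included, for 74.7% of single-transcript genes above 0. The division into classes at 10 kb was made after the values were seen. Of 18 tested members of up to 10 kb, 13 had a value above 0 (72.2%), and of 26 longer ones, 22 had a value below 0 (84.6%). The medians were 0.052 and -0.094. Over all tested genes the shares were 69.1% above 0 for the 3266 short ones and 60.2% below 0 for the 6492 longer ones, with medians of 0.094 and -0.030. In replicate 1 the short and long members had medians of 0.096 and -0.100, and in replicate 2 of -0.017 and -0.056. Across the 44 members Spearman's rho between span and fold change was -0.60 in replicate 1 and -0.23 in replicate 2, and over 9751 tested genes -0.36 and -0.24. These describe genes that share libraries and are no replicates. Among TFIID genes the 5 of up to 10 kb (Taf6, Taf7, Taf9, Taf10 and Taf11) all had a value above 0, with a median of 0.187, and 9 of the 10 longer ones were below 0.

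**Figure D4:**
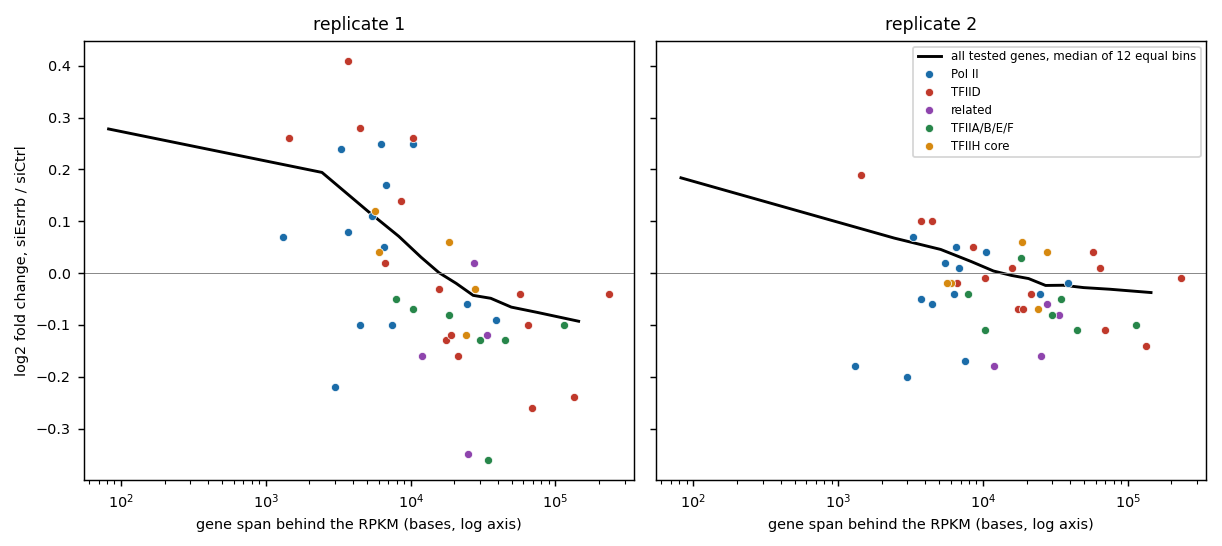
Log2 fold change of the 44 members against gene span in bases (log axis), replicate 1 on the left and replicate 2 on the right; the black line joins the medians of 12 equal bins of all tested genes. Longer members lie mostly below 0 in replicate 1, and the line falls in both replicates.

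Paralogs differed widely in level. Taf9 had 11.1 to 27.8 times the RPKM of Taf9b over the 4 libraries. Taf9b itself had 0.100 to 0.255 RPKM, from 39 and 248 reads in siCtrl and 32 and 208 in siEsrrb. Reads of Taf9 cannot be told apart from those of Ak6, as given above. Taf7 had 9.86 to 15.4 times that of Taf7l, a germ cell paralog on the X chromosome. Gtf2a1l, the germ cell form of the large TFIIA subunit, had 0.00481 to 0.0129 RPKM, from 5 to 38 reads, against 1.47 to 2.69 RPKM for Gtf2a1. Taf4 had 4.18 to 5.05 times the RPKM of Taf4b, and Tbp 2.30 to 3.01 times that of Tbpl1, a TBP relative that does not bind TATA boxes. Taf7l2 had 0 to 14 reads in a library, too few to compare the groups. The SAGA forms were at similar levels to their TFIID counterparts: Taf5 had 0.618 to 0.843 times the RPKM of Taf5l and Taf6 had 1.32 to 1.97 times that of Taf6l. The fitted value of Taf5 was -0.01 (SE 0.06) beside -0.25 for Taf5l, and Taf6 0.09 beside -0.17 for Taf6l; these differences between paralogs were not tested. Taf4b (-0.03) and Tbpl1 (-0.02) had overlapping groups.

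Medians of the lists of related machinery ran from -0.247 for TFIIS to 0.052 for the Pol I subunits. Counts of lower and higher genes below are of groups without overlap, as for 22.0% and 21.8% of all tested genes. Of the 5 other TFIIH genes, among them the kinase Cdk7 (-0.07) and the helicase gene Ercc3 (-0.04), with Mnat1 of the kinase module (-0.03), 1 was lower and 0 higher (median -0.034). The 3 TFIIS genes, which help stalled Pol II to resume, had a median of -0.247 (-0.295 in replicate 1 and -0.199 in replicate 2) and 2 lower: Tcea3 at -0.61 (SE 0.10; limma adjusted p 0.247) and Tcea1 at -0.25 (SE 0.08; 0.412), with Tcea2 at 0.17 and overlapping. Of 12 genes for Pol II assembly and C-terminal domain phosphatases, 5 were lower and 1 higher (median -0.043), with the phosphatase gene Ctdp1 at -0.19, Uri1 at -0.31 and Gpn3 at -0.16. Rpap1 of this list, named after its value was seen, was also lower, at -0.33 (SE 0.13). The 8 Pol I subunits had a median of 0.052, with Znrd1 lower at -0.35 (SE 0.07; limma adjusted p 0.277), and the 11 Pol III subunits one of -0.020, with Polr3k at 0.16, Polr3d at 0.22 and Polr3gl at -0.66 (SE 0.30). Pol I factors (5 tested) had -0.069, Pol III factors (15) -0.008 and SAGA genes outside the TAF symbols (10 tested of 13) 0.026. None of these genes passed the adjusted limma test.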

How the data were processed

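Nascent RNA-seq of 4 libraries was used, and the other 56 samples were not analysed here. The authors deposited RPKM per RefSeq transcript, per the file headers. Build mm9, CASAVA 1.4 and TopHat2 (every library) and Bowtie 1.1.1 and Bowtie2 (replicate 1) come from the submitters' processing notes. For the counting program, strand use and annotation, the entry is: not given in the sources used here. So reads of overlapping genes cannot be told apart. A further table with 1 column per condition equals replicate 1 and added nothing. Replicate numbers come from the titles, the unnumbered libraries being 1.

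Symbols came from GRCm38.p6 (34631 of 34929 transcripts matched). Whole reads were recovered for 31753 of 31771 transcripts above 0, within 0.01 of a read. RPKM were scaled by median of ratios (factors 0.925 to 1.09), 0.5 was added, and log2 values of the 9758 genes with a mean of at least 0.5 RPKM entered limma 3.58.1 (R 4.3.3; trend, no replicate block), adjusted over all genes; the script was tested on simulated data. Percentages of control are of scaled RPKM, without a pseudocount. Values in every library are given for Polr2a, Gtf2b, Taf2, Tbp and the 5 non-overlapping members per direction with the smallest p. The members and lists were chosen with earlier results of these data known. Alternatives changed the pseudocount, filter, scaling, transcript, tool, block and libraries.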

Additional observations from a re-analysis of the deposited data

How the results depend on the processing

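No member passed the adjusted test in any fit without a replicate block, whichever library was left out. With the replicate block in limma 0 members passed; with the replicate block and voom 5 of 44 did (11.4%, against 2680 genes or 27.5% of 9751), all lower: Taf3, Taf5l, Taf1, Gtf2a1 and Taf6l. The labels give these libraries a number but no shared source, and deviations from the group means of same-numbered libraries correlated at 0.39 over genes. The number of members apart, 19, was 13 without scaling, 7 of the 17 whose mean reached 2 RPKM, and 29 to 36 when 1 library was left out, which leaves fewer values to overlap. The share of all tested genes apart is given for the main fit only (43.8%). So these other counts stand without a background and are not read as a result about the members. The median of all members (-0.035) was -0.046 with a pseudocount of 0.1 RPKM and with a mean of at least 2, -0.026 without a filter, -0.066 without scaling (where the median of all genes is -0.034), -0.05 with voom and with the block and voom, and -0.048 (without siCtrl replicate 2) to 0.001 (without siEsrrb replicate 2) with 1 library left out. TFIID had 0.026 at a mean of at least 2, -0.038 without scaling, and -0.041 to 0.015 with 1 library left out. TFIIA, TFIIB, TFIIE and TFIIF had -0.131 with a pseudocount of 0.1 and without scaling, -0.08 with 1, -0.135 with voom, -0.133 with the block and voom, and -0.125 to -0.047 with 1 library left out; for TFIIH that range was -0.041 to 0.06. Pol II subunits (0.014) had -0.016 at a mean of at least 2, -0.026 without scaling, -0.012 with the block and voom, and -0.05 (without siCtrl replicate 2) to 0.06 (without siEsrrb replicate 2) with 1 library left out. The sign turned for Taf2 with voom (0.0008) and with the block and voom (0.00093), and for Gtf2b with the block and voom (0.0047); Of single genes with 1 library left out (Polr2a -0.12 to 0.03, Gtf2b -0.13 to 0.08, Taf2 -0.04 to 0.04), Polr2a turned without siCtrl replicate 1 (0.03) and without siEsrrb replicate 2 (0.02), Gtf2b without siCtrl replicate 2 (0.02) and without siEsrrb replicate 1 (0.08), and Taf2 without siCtrl replicate 1 (0.04) and without siEsrrb replicate 1 (0.00068). The lone library of a group was then assumed to vary like the others. The causes were not tested.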

Other observations

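Several members overlap another tested gene in the GRCm38.p6 annotation, and whether reads were assigned by strand is not given in the sources used here. Taf10 (0.22 on the log2 scale) overlaps Ilk, the integrin-linked kinase gene, which had 0.43. Taf6 (0.09) overlaps Ap4m1, a subunit gene of an adaptor complex, which had -0.39. Taf9 (0.19) shares its locus with Ak6, an adenylate kinase gene, at 0.05. Polr2i (-0.05) overlaps Tbcb, a tubulin cofactor gene, at 0.19, and Taf6l (-0.17) overlaps Tmem179b at -0.09. Taf11 (0.00) overlaps Anks1 at -0.09 and Taf5 (-0.01) overlaps Atp5md at 0.02. Tbpl1 (-0.02) overlaps Mir7663, a microRNA gene, at 0.98, with 2.07 in replicate 1 and -0.10 in replicate 2. The share of reads that each pair has in common was not tested.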
